A study of Mus musculus with 4 samples.

Results

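The 9 genes described here encode acute phase proteins, secreted proteins whose blood levels climb during inflammation: Saa1, Saa2, Saa3, Lcn2, Hp, Orm1, Orm2, Ptx3 and Cp. They were taken by gene symbol from the 38087 genes of the deposited read table, and all 9 were found. The set was chosen by its higher read counts in the KO than in the WT libraries described here, so that contrast is given as a description. RNA was sequenced from 2 samples of Becn1-M-KO mice (KO), which lack Becn1 in myeloid cells, and 2 wild type samples (WT), all labelled C57BL/6, cervical lymph node and post natal week 20. KO samples are called B cell lymphomas by the series, whereas WT samples are labelled as wild type nodes; effects of the deletion and of the tumour cannot be told apart. The labels name neither the Cre driver nor the animals, and p-values therefore measure only the spread between samples that may not come from separate animals. In whole tissue, fewer cells of a type and less RNA per cell cannot be told apart either.

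Acute phase proteins are made mainly by the liver under the control of interleukin 6, interleukin 1 and tumour necrosis factor, acting through the transcription factors STAT3, C/EBP and NF-kB. Several are also made at the site of inflammation: in the mouse, Saa3 is known from macrophages, adipocytes and epithelium, Lcn2 from neutrophils, macrophages and epithelium, and Ptx3 from myeloid, stromal and endothelial cells. They bind lipid, iron, haemoglobin, copper or microbes, each protein having its own cargo.

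Depth was 15604247 and 20067004 reads in KO replicates 1 and 2, and 16141605 and 17874699 reads in WT replicates 1 and 2. The WT libraries held epithelial transcripts that the KO libraries nearly lacked: 8 epithelial markers summed to 11.5 and 19.6 CPM of total (reads scaled by library total alone) in KO, against 1340 and 1210 in WT. WT replicate 1 also stood apart from WT replicate 2 in lymphocyte RNA, with 8 B cell markers at 2630 and 2540 CPM of total in KO and 6.26 and 1590 in WT replicates 1 and 2. The 8 T cell markers, which define a lymph node beside B cells, were at 601 and 583 CPM of total in KO and 5.82 and 715 in WT. Sex-linked RNA differed as well: the Y-linked gene Eif2s3y had 767 and 1083 reads in KO and 1 and 6 in WT. Becn1 itself, counted over the whole tissue, had 984 and 1384 reads in KO and 454 and 1330 in WT, which does not check a deletion in myeloid cells. The part of tissue makeup and sex in the differences below was not tested.

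Saa1, Saa2 and Saa3 encode serum amyloid A proteins, apolipoproteins of high density lipoprotein, and lie together on chromosome 7, as does Saa4. Their transcripts share stretches that a short read cannot assign to 1 gene. The longest stretch common to Saa1 and Saa3, within the principal transcripts of GENCODE M21 on GRCm38, is 58 bases of coding sequence, at chr7:46741298-46741355 in Saa1 and chr7:46712631-46712688 in Saa3, both on the minus strand. It is shown because the reads counted for Saa1, described below, were short. Capitals mark the shared bases, with 30 flanking bases on either side.
Saa1: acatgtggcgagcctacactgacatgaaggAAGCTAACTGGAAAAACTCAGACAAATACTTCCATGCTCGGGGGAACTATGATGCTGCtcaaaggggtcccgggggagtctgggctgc
Saa3: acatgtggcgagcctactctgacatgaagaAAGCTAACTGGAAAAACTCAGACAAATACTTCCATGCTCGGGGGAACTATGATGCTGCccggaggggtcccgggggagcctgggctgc

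The stretch shared by Saa1 and Saa2 is longer, at 76 bases, and Saa2 and Saa3 share at most 41. Of the 30-base windows of the Saa1 transcript, 24.0% recur in Saa2 and 5.0% in Saa3. Orm1 and Orm2, which encode orosomucoids (alpha-1-acid glycoproteins, carriers of drugs and small lipids in plasma), share 141 bases, and 28.0% of the windows of each recur in the other.

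The promoters of the 3 Saa genes and of Lcn2 are shown next, the Saa genes because their transcripts share sequence and Lcn2 because its level was among the highest in KO. RefSeq (GRCm38.p6) gave a promoter for 7 of the 9 genes, 8 promoters in all. The 250 bases before each start were searched on both strands for letters of NF-kB (GGG, any 2 letters, TT, any letter, CC), C/EBP (TTNNGNAA), STAT (TTCNNNGAA), AP-1 (TGANTCA) and the TATA box (TATAAA). Capitals mark the C/EBP letters, since those of NF-kB and STAT were in none of the 8 promoters. The windows are chr7:46715677-46715926 for Saa3 (minus strand), chr2:32387740-32387989 for Lcn2 (minus), chr7:46742981-46743230 for Saa1 (minus) and chr7:46751583-46751832 for Saa2 (plus).
Saa3: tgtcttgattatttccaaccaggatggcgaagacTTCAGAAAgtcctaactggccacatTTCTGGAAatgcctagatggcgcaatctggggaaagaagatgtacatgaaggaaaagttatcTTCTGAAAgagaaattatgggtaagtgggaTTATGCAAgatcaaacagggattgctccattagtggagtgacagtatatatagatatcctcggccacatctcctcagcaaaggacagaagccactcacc
Lcn2: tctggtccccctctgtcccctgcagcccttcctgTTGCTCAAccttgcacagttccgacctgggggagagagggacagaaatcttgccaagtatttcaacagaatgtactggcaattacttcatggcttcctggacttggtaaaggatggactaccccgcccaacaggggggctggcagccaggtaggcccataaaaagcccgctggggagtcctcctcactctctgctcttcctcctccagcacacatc
Saa1: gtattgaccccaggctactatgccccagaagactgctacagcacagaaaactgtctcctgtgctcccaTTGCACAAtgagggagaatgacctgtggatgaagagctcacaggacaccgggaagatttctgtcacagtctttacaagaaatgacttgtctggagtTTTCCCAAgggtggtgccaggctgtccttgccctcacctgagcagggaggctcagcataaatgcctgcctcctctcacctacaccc
Saa2: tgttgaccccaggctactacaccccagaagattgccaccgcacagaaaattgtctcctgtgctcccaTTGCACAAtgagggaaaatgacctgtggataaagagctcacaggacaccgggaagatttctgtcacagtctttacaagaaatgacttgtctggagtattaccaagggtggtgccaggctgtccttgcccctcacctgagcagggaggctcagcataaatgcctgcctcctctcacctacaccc

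C/EBP letters were in all 8 promoters, those of Saa1, Saa2, Saa3, Lcn2, Orm2, Ptx3 and Cp, and in 36.8% of the 32851 promoters of the table. Saa3 held 4 such matches, Saa1 2, and Saa2 and Lcn2 1 each. NF-kB letters were in 4.11% of all promoters and STAT letters in 7.02%. AP-1 letters were in 2 of the 8, those of Orm2 and 1 of the Cp promoters, and in 6.75% of all. The letters TATAAA were in 2 of the 8 (Orm2 and the other Cp promoter) and in 12.4% of all. The Saa1 and Saa2 promoters were alike at 95.2% of the 250 bases. A match of letters is not a bound site, and absence of these letters from this window bears on nothing beyond it.

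Saa3 was the most abundant member in KO. It lies at chr7:46711998-46715676 and had 5688 and 8418 reads in KO, against 9 and 56 in WT, or 285 and 324 CPM in KO and 1.08 and 2.67 CPM in WT (scaled by the trimmed mean of M values, TMM, as are all CPM values from here unless said to be of total). The groups did not overlap, and the lower KO library stood far above the higher WT library. In KO it ranked 304th and 229th among all genes by reads, whereas in WT it ranked 17549th and 15792nd. It averaged 305 ± 27.0 CPM in KO and 1.87 ± 1.12 CPM in WT (SD, n = 2 each). The fitted log2 fold change of KO over WT was 7.30 (SE 0.62, n = 2 each). The fit without WT replicate 1 gave 6.84, and that without WT replicate 2 gave 8.11.

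The number of bases of Saa3 read in KO was close to the length of its transcript. The deposited table counts bases under a depth that it does not state; the rest, 587 and 598 bases of Saa3 in KO, can be set beside the 555 bases of its principal transcript. The positions of these bases are not in the table, and some lie outside that transcript, since they outnumber its bases. In WT 0 and 80 bases were so covered. The aligned length per read, from mean depth, gene length and reads, was 73.7 and 71.3 bases in KO. That is close to the median of 74.9 and 72.1 bases over the 17907 and 18848 genes with at least 20 reads in those libraries.

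Saa1 reads had another shape. Saa1, the systemic serum amyloid A of the liver together with Saa2, lies at chr7:46740501-46742980 and had 33 and 59 reads in KO and 1 and 1 in WT. The ratio of summed reads per library total was 43.9, with an exact 95% counting interval of 11.8 to 368, and the fitted log2 fold change was 4.68 (SE 0.61). These reads aligned over 30.6 and 29.8 bases each in KO, far shorter than for Saa3. Of the 2480 bases of the gene, 28 and 33 passed the depth limit in KO, a length close to that of 1 such aligned read. Under 35 aligned bases per read were found for 2.97% and 4.37% of the genes with at least 20 reads in the KO libraries. Saa1 reads were 0.58% and 0.701% of Saa3 reads in KO; with 1 read each, the shares in WT (11.1% and 1.79%) say little. Whether reads of Saa3 were counted for Saa1 was not tested.

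Saa2, at chr7:46751833-46754314, had 5 and 13 reads in KO and 0 and 2 in WT, too few for the test. They aligned over 30.8 and 32.1 bases each in KO. The ratio of summed reads per library total was 8.58 (exact 95% interval 2.05 to 76.3). The related Saa4, a constitutive form and not a member, had 1 and 0 reads in KO and 0 in both WT libraries. Saa3 therefore made up 99.3% of the reads of the 4 Saa genes in KO replicate 1 (Wilson 95% interval 99.1 to 99.5) and 99.2% in KO replicate 2 (98.9 to 99.3). In WT its share was 90.0% of 10 reads (59.6 to 98.2) and 94.9% of 59 reads (86.1 to 98.3). These intervals cover counting error only.

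**Figure D1:**
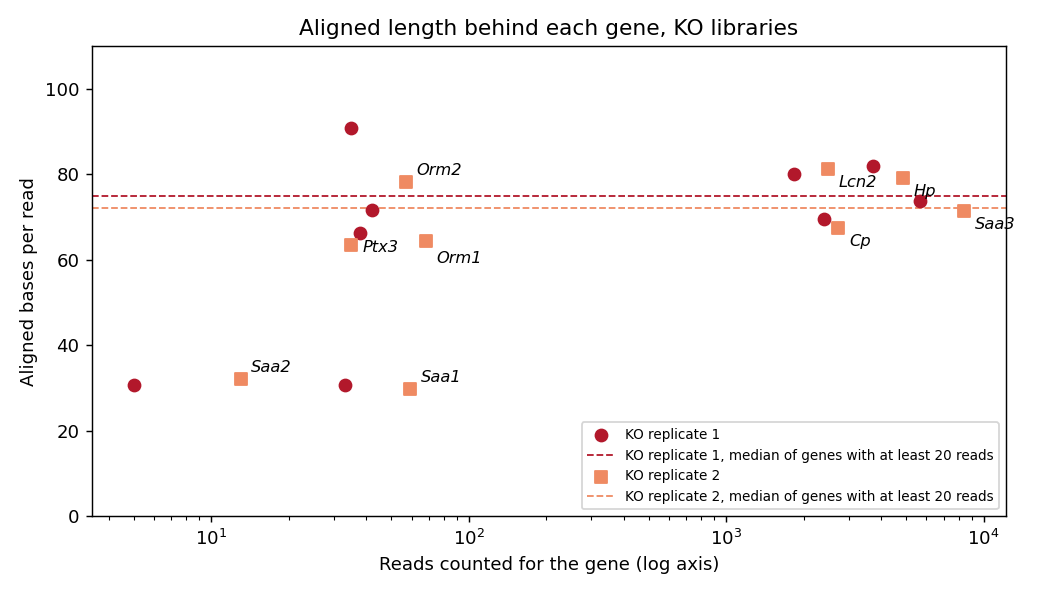
Aligned bases per read (vertical axis, bases) against reads counted (horizontal axis, log scale) for the 9 genes in the 2 KO libraries; dashed lines mark the median over genes with at least 20 reads. Saa1 and Saa2 sit at 29.8 to 32.1 bases, the other 7 genes at 63.5 to 90.8.

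Lcn2 encodes lipocalin 2, which withholds iron from bacteria by binding their siderophores. It lies at chr2:32384633-32387797 and had 1843 and 2479 reads in KO, against 34 and 53 in WT. Its level was 92.5 and 95.3 CPM in KO and 4.10 and 2.52 CPM in WT, so the KO libraries were close and the groups lay far apart. It averaged 93.9 ± 1.98 CPM in KO and 3.31 ± 1.11 CPM in WT (SD, n = 2 each). The log2 fold change was 4.85 (SE 0.35, n = 2 each), the smallest error of the 8 members tested, and 5.22 and 4.50 without WT replicates 1 and 2. Covered bases in KO numbered 944 and 984, beside a principal transcript of 915 bases.

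Neutrophil markers were read beside Lcn2, since neutrophils store its protein. The 12 markers summed to 93.6 and 104 CPM of total in KO and 2.04 and 24.7 in WT, and 6 of the 12 had 0 reads in WT replicate 1. Most of the KO sum came from Csf3r, the receptor of granulocyte colony-stimulating factor, with 1167 and 1602 reads in KO against 24 and 189 in WT. Among the calprotectin genes, S100a8 had 76 and 110 reads in KO and 0 and 24 in WT, and S100a9 had 96 and 167 in KO and 0 and 85 in WT. Of the granule genes, Ngp had 13 and 45 reads in KO and 1 and 9 in WT, and Mpo 14 and 15 in KO and 1 and 5 in WT. Camp had 2 and 8 reads in KO and 0 and 2 in WT, and Elane 2 and 3 in KO and 0 and 1 in WT. The groups overlapped in Cxcr2, with 50 and 88 reads in KO and 4 and 101 in WT. They also overlapped in Retnlg (5 and 4 in KO, 0 and 7 in WT) and Cd177 (21 and 9 in KO, 2 and 14 in WT). Of the 8 neutrophil markers tested, all 8 had a positive log2 fold change, with a median of 1.78, and 6 had both KO libraries above both WT libraries; 0 passed the test (edgeR; unadjusted p under 0.05 in 3). Macrophage markers (10 genes) summed to 1310 and 1280 CPM of total in KO and 106 and 1180 in WT, and most of the sum in WT replicate 2 came from Lyz2 (2598 and 3779 reads in KO, 495 and 11896 in WT) and Marco (622 and 424 in KO, 4 and 3541 in WT). In 7 of the 10, among them Cd68 (154 and 155 CPM in KO, 9.64 and 27.5 CPM in WT), both KO libraries stood above both WT libraries, and 1 of the 10, Fcgr1, rose (adjusted p = 0.0497). Over the 10 the median log2 fold change was 1.67. Fibroblast markers (7 genes) summed to 961 and 788 CPM of total in KO and 222 and 293 in WT, and endothelial markers (5 genes) to 409 and 321 in KO and 60.3 and 393 in WT. Of all genes tested, 34.3% had both KO libraries above both WT libraries, and 1.04% were called higher. Unadjusted p was under 0.05 in 2180 of the 20695 with a higher level in KO (edgeR). Both KO libraries stood above both WT libraries in 7 of 8 B cell markers and 6 of 7 fibroblast markers as well. They did so in 0 of 8 T cell, 0 of 5 endothelial and 0 of 8 epithelial markers. Most neutrophil, macrophage, B cell and fibroblast markers tested thus had higher levels in both KO libraries, as Saa3 and Lcn2 had. The part of these markers' cells in the levels of Saa3 and Lcn2 was not tested.

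Hp encodes haptoglobin, the plasma scavenger of free haemoglobin, and showed the widest spread in WT. It lies at chr8:109575130-109579172, with 3715 and 4846 reads in KO and 309 and 61 in WT. Its level was 186 and 186 CPM in KO but 37.2 and 2.90 CPM in WT, where it averaged 20.1 ± 24.3 CPM (SD, n = 2). Both KO libraries stood above both WT libraries. The log2 fold change of 3.23 had an SE of 1.28; it became 6.01 with WT replicate 1 left out and 2.31 with WT replicate 2 left out. Aligned length per read was 82.0 and 79.2 bases in KO and 99.2 and 70.4 in WT, and 663 bases were covered in WT replicate 1 against 0 in WT replicate 2. Hp made up 54.1% of the members' reads in WT replicate 1, the library poor in lymphocyte RNA, and 5.10% in WT replicate 2.

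Cp encodes ceruloplasmin, the copper-carrying ferroxidase of plasma. It lies at chr3:19957054-20009145 and overlaps Hps3 on the other strand, and no source states whether strand was used in counting. It had 2401 and 2723 reads in KO and 218 and 974 in WT, or 121 and 105 CPM in KO and 26.3 and 46.4 CPM in WT. The groups did not overlap, though the gap was the smallest among the abundant members. The log2 fold change was 1.63 (SE 0.37), and 1.29 and 2.08 without WT replicates 1 and 2. In WT replicate 2 Cp supplied 81.4% of the members' reads.

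The orosomucoid genes were low in every library. Orm1, at chr4:63344560-63348163, had 38 and 68 reads in KO and 0 and 4 in WT, a ratio of summed reads per library total of 25.3 (exact 95% interval 9.58 to 94.5) and a log2 fold change of 4.08 (SE 0.81). Orm2, at chr4:63362449-63365878, had 35 and 57 reads in KO and 0 and 40 in WT. Orm2 was the 1 member whose groups overlapped: 1.76 and 2.19 CPM in KO lay around the 1.90 CPM of WT replicate 2. Its log2 fold change was 0.87 (SE 1.22), and 0.07 without WT replicate 1. In WT replicate 1 a count of 0 allows 3 reads or 0.186 CPM of total. Against that floor, by library totals, Orm1 was at least 16-fold and Orm2 at least 13.9-fold higher in KO. The TMM factor was 0.514 in WT replicate 1 and 1.28 and 1.3 in KO replicates 1 and 2. On the TMM scale both bounds would therefore be lower.

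The family's makeup differed between KO and WT replicate 2. Orm1 gave 37.3% (Wilson 95% interval 28.5 to 46.9) and 44.7% (37.1 to 52.7) of the reads of Orm1, Orm2 and Orm3 in KO, against 6.35% (2.50 to 15.2) of 63 reads in WT replicate 2. Orm2 gave 34.3% and 37.5% in KO and 63.5% in WT replicate 2. Orm1 and Orm2 share stretches longer than the aligned reads, so the split between them is uncertain. No read of the 3 genes was counted in WT replicate 1, so the comparison rests on 1 WT library and was not tested.

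Ptx3 encodes pentraxin 3, a soluble pattern recognition protein that binds microbes and the complement protein C1q. It lies at chr3:66219887-66225806, within Veph1 on the other strand, and had 42 and 35 reads in KO and 0 and 5 in WT. The ratio of summed reads per library total was 14.7 (exact 95% interval 6.03 to 46.5), and the level in KO was 2.11 and 1.35 CPM, against 0 and 0.238 CPM in WT. The groups did not overlap. The log2 fold change was 3.38 (SE 0.86), and 2.81 without WT replicate 1. Against the same floor in WT replicate 1, the KO level was at least 11.6-fold higher by library totals, a bound that TMM scaling would also lower.

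**Figure D2:**
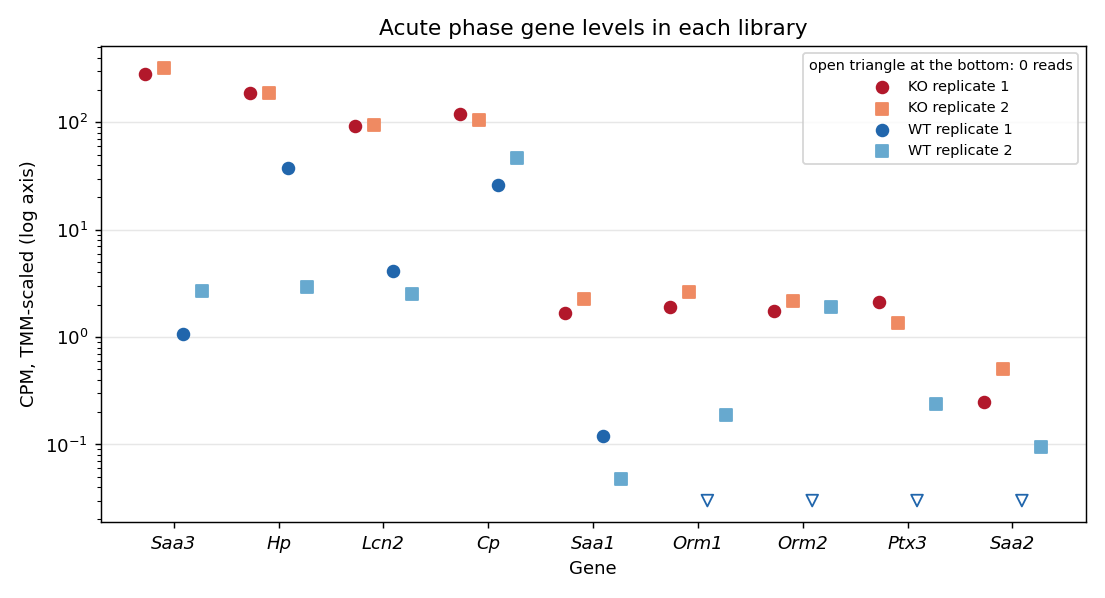
Level of each gene (vertical axis, TMM-scaled CPM, log scale) in the KO libraries (red and orange) and the WT libraries (dark and light blue), 1 point per library; open triangles mark 0 reads. Saa3, Hp, Lcn2 and Cp reach 92.5 to 324 CPM in KO, the other 5 genes at most 2.61.

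Levels between genes were compared per length, as CPM of total per kilobase of principal transcript. In KO the order was Saa3 (657 and 756), Hp (177 and 180), Lcn2 (129 and 135) and Cp (38.2 and 33.7), with no overlap between neighbours. Saa1 (3.47 and 4.83), Orm1 (3.14 and 4.37) and Orm2 (2.89 and 3.67) followed and overlapped one another. Ptx3 (1.42 and 0.919) and Saa2 (0.491 and 0.994) came last, also overlapping. In WT the 2 libraries did not share an order: Hp led in replicate 1 at 14.2, and Cp led in replicate 2 at 13.5, followed there by Saa3 at 5.64 and Lcn2 at 3.24. The deposited length of each gene is its whole genomic span and no source says whether intronic reads were counted, so these values are approximate.

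Summed over the 9 genes, the members held 884 and 932 CPM of total in KO and 35.4 and 66.9 in WT. Saa3, Hp, Lcn2 and Cp gave 98.9% and 98.8% of those reads in KO, and 99.8% and 95.7% in WT. Saa3 alone gave 41.2% and 45.0% in KO but 1.58% and 4.68% in WT. The KO libraries were thus alike in makeup, while the WT libraries differed from KO and from each other.

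Of the 9 members, 8 passed the filter on low counts, and 3 of those (Saa3, Lcn2 and Saa1) had an adjusted p under 0.05 with a higher level in KO, where 1.04% of the 20695 genes tested did (edgeR quasi-likelihood test, Benjamini-Hochberg adjustment); 0 were lower, against 2.18% of all genes. The 3 include Saa1, whose reads were short. Members whose KO libraries both stood above both WT libraries numbered 7 of the 8 tested, against 34.3% of all genes tested (33.3% had both KO libraries below both WT libraries). The median log2 fold change was 3.73 over the 8, beside 0.01 over all genes tested. The members were chosen with this contrast known, so these counts describe them and nothing is read from them. Without WT replicate 1, the library poor in lymphocyte RNA, 7 members were called higher, against 20.9% of genes in that fit (22.8% lower), and without WT replicate 2 there were 8, against 32.3% (32.5% lower). A fit with 1 WT library says nothing of the spread within WT. Leaving out either KO library left 0 members called and 0 of all genes (edgeR; unadjusted p under 0.05 in 4 members without KO replicate 1 and in 6 without KO replicate 2). DESeq2 with all 4 libraries called 7 members higher and 0 lower, against 6.4% and 11.7% of all genes.

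**Figure D3:**
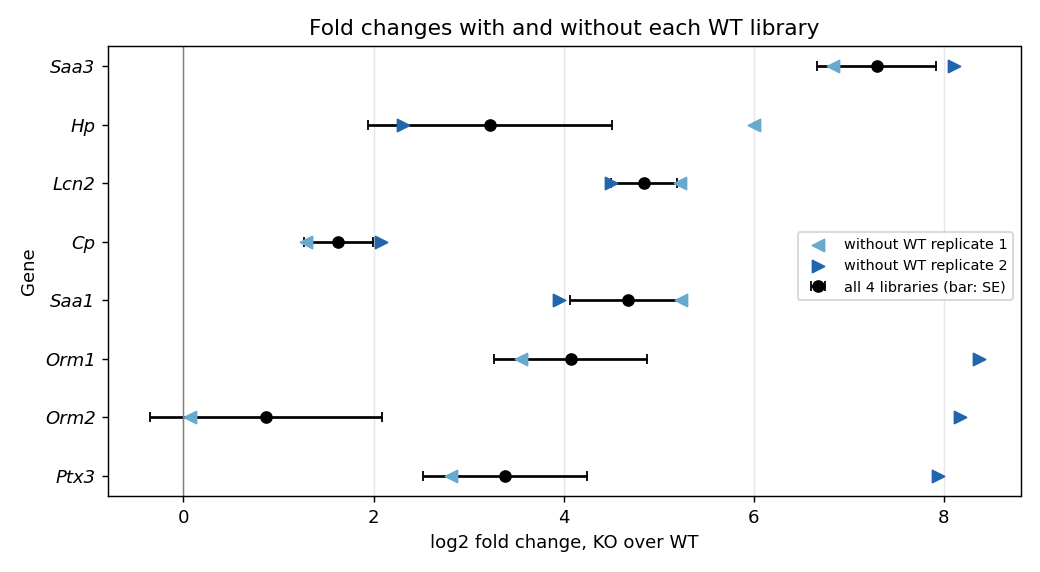
Log2 fold change of KO over WT (horizontal axis) for the 8 genes tested, with all 4 libraries (black, bar: SE) and without each WT library (triangles). Lcn2 stays between 4.50 and 5.22 in these fits and Hp ranges from 2.31 to 6.01; the values of Orm1, Orm2 and Ptx3 near 8 without WT replicate 2 rest on 0 WT reads and depend on the prior count.

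The authors' deposited table of comparisons lists 8 of the 9 members as up in KO, all but Hp, where 6.52% of the 38087 genes are so listed. Its largest p-value is 0.05, unadjusted. For Saa3 the authors' deposited table gives a log2 fold change of 7.45, for Lcn2 4.89 and for Cp 1.87, each within 1 SE of the value fitted here. The authors' deposited short table of 86 rises (0.226% of genes) holds 0 members. Orm2 was the exception in this comparison. In the authors' deposited table of log2 values it stood at 1.55 and 1.66 in KO and at -2.32 and -1.55 in WT, a listed log2 fold change of 3.53 with an unadjusted p of 0.00592 in the authors' deposited table. The deposited reads put KO replicates 1 and 2 only 0.00334 and 0.344 above WT replicate 2 (log2 CPM of total), where the authors' deposited table of log2 values puts them 3.09 and 3.21 above it. The cause of this gap was not tested.

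**Figure D4:**
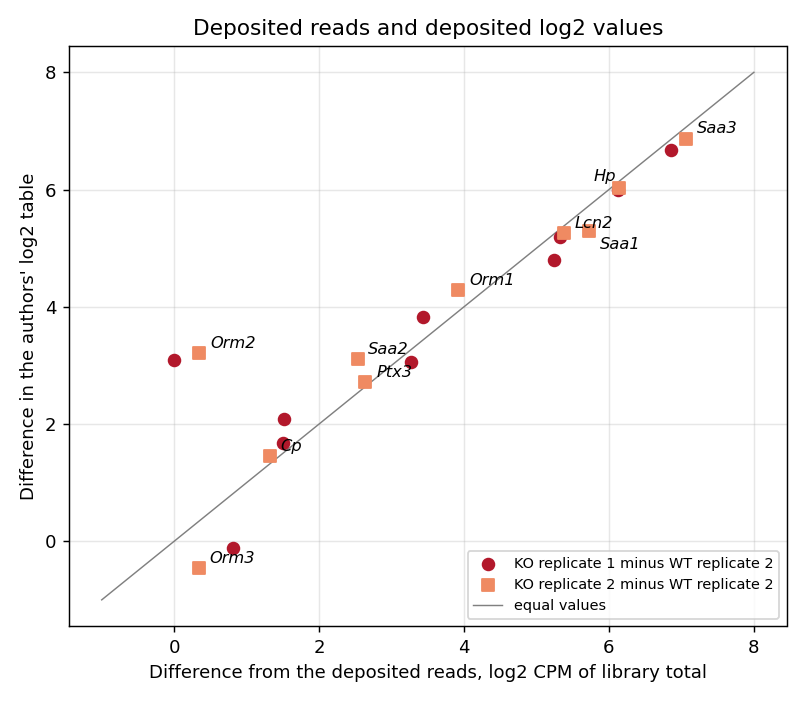
Difference of each KO library from WT replicate 2 in the authors' log2 table (vertical axis) against the same difference from the deposited reads (horizontal axis, log2 CPM of library total) for the 9 genes and Orm3. Orm2 lies about 3 log2 units above the line of equal values, at 3.09 against 0.00334 and 3.21 against 0.344.

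Other genes of the acute phase pathway were taken from 3 lists, of which 55 of 63 genes passed the filter on low counts. Of 18 other acute phase genes, 11 were tested and 0 passed in either direction (edgeR; unadjusted p under 0.05 in 2 higher and 2 lower), with a median log2 fold change of 0.80. Over all 20695 genes tested, unadjusted p was under 0.05 in 2180 higher and 3391 lower (edgeR). The liver products Crp, Apcs, Fga, Fgb, Fgg and Hamp had at most 15 reads in any library. Others on that list had more: Serpina3n had 941 and 993 reads in KO and 7 and 788 in WT. Lbp had 98 and 52 in KO and 32 and 153 in WT. C3, the central complement protein, had 2490 and 2080 CPM in KO and 44.8 and 271 CPM in WT, a log2 fold change of 3.86 (SE 1.08, adjusted p = 0.130). The metallothionein genes Mt1 and Mt2, which buffer zinc and copper, did not pass either. Mt1 had 18.8 and 16.4 CPM in KO and 75.9 and 51.0 CPM in WT (log2 fold change -1.85, SE 0.29, adjusted p = 0.0611), and Mt2 had 3.76 and 1.81 CPM in KO and 16.8 and 9.80 CPM in WT (-2.25, SE 0.54, adjusted p = 0.102). Hepatocyte markers were low in every library: the 12 summed to 17.4 and 17.1 CPM of total in KO and 10.8 and 21.5 in WT. Alb, which encodes albumin, had 2 and 2 reads in KO and 16 and 11 in WT, and Apoa1 had 1 and 0 in KO and 0 in both WT libraries. Serpina1c had 62 and 85 reads in KO and 1 and 42 in WT, and Apoh 65 and 89 in KO and 20 and 54 in WT. Of the 7 hepatocyte markers tested, 5 had a positive log2 fold change and 2 a negative one, with a median of 0.331.

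Among 24 inducers (cytokines, their receptors and transcription factors), 23 were tested, 3 rose and 1 fell, with a median of 0.92. Of all genes tested, 1.04% were called higher and 2.18% lower, and the median log2 fold change was 0.01. Il1b, which encodes interleukin 1 beta, rose to 77.7 and 63.5 CPM in KO, against 2.05 and 1.90 CPM in WT (log2 fold change 5.16, SE 0.26, adjusted p = 0.0370). Il1a, which encodes interleukin 1 alpha, rose to 11.7 and 11.6 CPM in KO, against 1.81 and 2.52 CPM in WT (log2 fold change 2.41, SE 0.31, adjusted p = 0.0494). In both genes the TMM-scaled libraries of a group were close and the groups did not overlap. By library totals WT replicates 1 and 2 were further apart. There Il1a was at 0.929 and 2.97 CPM of total, and Il1b at 1.05 and 2.24. Cebpb, which encodes C/EBP beta, rose to 52.8 and 53.1 CPM in KO, against 14.3 and 10.3 CPM in WT (log2 fold change 2.11, SE 0.26, adjusted p = 0.0483). Lifr, the receptor of leukaemia inhibitory factor, fell to 12.0 and 10.3 CPM in KO, against 47.0 and 44.1 CPM in WT (log2 fold change -2.03, SE 0.21, adjusted p = 0.0456). Il1b, Il1a and Cebpb overlap Gm14047, Gm14023 and Tmem189, so some of their reads may be counted for another gene.

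Of 21 receptors and partners of these proteins, all tested, 1 rose and 1 fell, with a median of 0.88. Fpr2, a formyl peptide receptor that also binds serum amyloid A, rose to 53.7 and 56.7 CPM in KO, against 0.482 and 0.857 CPM in WT (log2 fold change 6.27, SE 0.36, adjusted p = 0.0370); it overlaps Fpr3. Slc22a17, a receptor for lipocalin 2, fell to 2.91 and 3.19 CPM in KO, against 55.6 and 33.3 CPM in WT (log2 fold change -3.86, SE 0.36, adjusted p = 0.0441). Slc22a17 was thus lower in the libraries in which its ligand Lcn2 was higher, and the epithelial marker sum, given above, was also lower there. Over the 3 lists 4 of 55 genes rose and 2 fell, beside 1.04% and 2.18% of all genes. The lists were drawn up with earlier results of these data known. How many list genes were called depended strongly on which library was left out. A fit with 1 library in a group says nothing of the spread within that group.

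**Figure D5:**
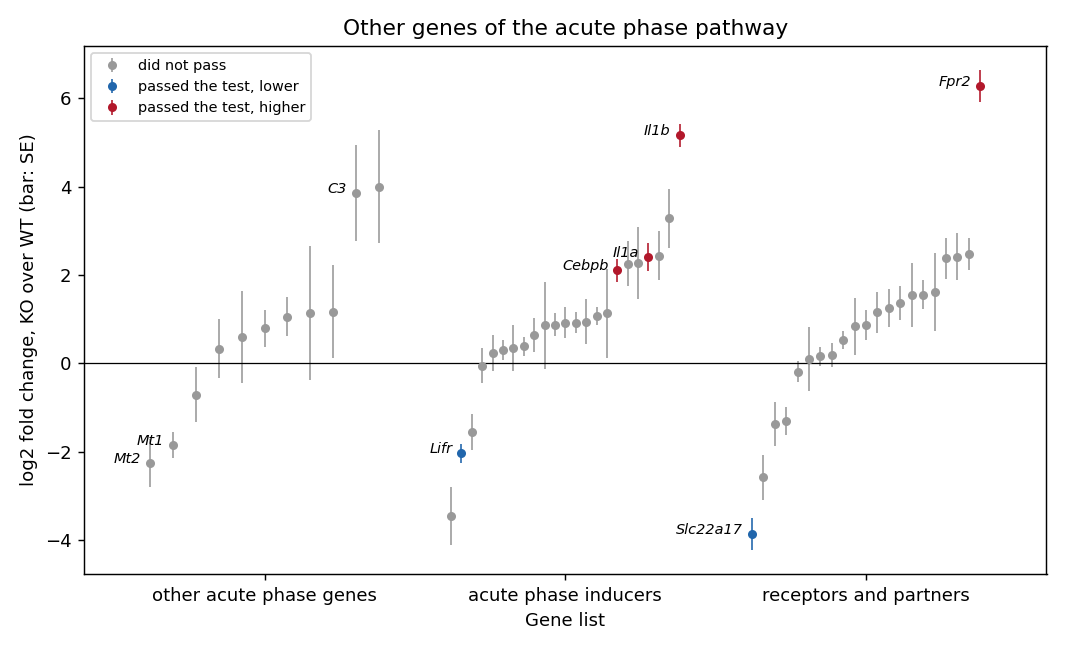
Log2 fold change of KO over WT (vertical axis, bar: SE) for each tested gene of the 3 pathway lists, ordered by value within its list; red and blue mark genes that passed the test. Il1b, Il1a, Cebpb and Fpr2 rose, Lifr and Slc22a17 fell, and the other tested genes did not pass.

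The genes nearest to Saa3 in their pattern over the 4 libraries were Ptgs2, Nos2 and Eif2s3y, among 12666 genes whose mean log2 CPM reached 3. Their root mean square differences from Saa3, after centring each gene's log2 CPM, were 0.179, 0.193 and 0.22. Mmp3, Fcgr4 and 1700071M16Rik were nearest to Lcn2, at 0.129, 0.231 and 0.253. With 4 libraries such likeness is slight: the Y-linked Eif2s3y, which follows the sex of the samples, is on the list of Saa3.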

How the data were processed

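Ion Torrent libraries were made from rRNA-depleted total RNA, per the labels' protocols. The authors deposited raw read counts per gene as whole numbers, with average coverage and low-coverage bases, per the file headers. The authors also deposited a table of log2 values, which have a median of 0 per gene, and tables of comparisons with fold changes (ratio and log2) and unadjusted p-values, per the file headers. The submitters' processing notes name the build mm10 and DESeq2 1.62, without a role; no source used here names the aligner or counter. Listed lengths are genomic spans for all 38087 genes.

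Counts were filtered (filterByExpr, at least 10 reads, 15 in sum), scaled by TMM and compared by the quasi-likelihood test of edgeR 4.0.16 (R 4.3.3), with Benjamini-Hochberg adjustment and a threshold of 0.05. Each SE is the log2 fold change over the square root of its F. The step was tested on simulated counts. There all libraries had the same mean profile apart from the changes put into KO, whereas the WT libraries here differed in makeup. Alternatives were DESeq2 size factors, library totals, no or a stricter filter, DESeq2 1.42.0, limma-voom (limma 3.58.1), a replicate block and each library left out. The members and lists were chosen with earlier results of these data known. Named list genes were those called or, where none was, the 3 with the smallest p; the list genes given with reads alone, and Orm3, Saa4 and the marker genes named singly, were chosen after their values were seen. All 142 list entries matched a gene. Transcript sequences came from GENCODE M21 and promoters from RefSeq, both on GRCm38, the build of mm10. Per-length values used principal transcripts. A count of 0 allows up to 3 reads; intervals are at the 95% level.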

Additional observations from a re-analysis of the deposited data

How the results depend on the processing

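The 8 tested members and 9 named list genes kept their direction under every alternative run. With library totals alone the median of all genes moved to 0.603 on the log2 scale (0.01 with TMM), and that of the tested members to 4.49; 0 members, 0 list genes and 0 of all genes were then called in either direction (edgeR; unadjusted p under 0.05 in 7 members and in 1482 and 1509 genes, higher and lower). The replicate block also gave 0 members, 0 list genes and 0 of all genes (unadjusted p under 0.05 in 7 members and in 1866 and 2734 genes). The labels do not say what a replicate number marks, and same-numbered deviations correlated at -0.108. Crossing the numbers, an alternative chosen after seeing the data, gave 202 higher and 643 lower over all genes, and 2 higher and 1 lower in the lists. DESeq2 called 7 members higher, 15 list genes higher and 8 lower, and 1325 and 2430 genes higher and lower. With no count filter 542 genes were higher and 1188 lower.

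Leaving out each library in turn gave 0 to 8 members higher, 0 to 36 list genes higher and 0 to 11 lower, and 0 to 6887 and 0 to 6922 of all genes. The zeros came without KO replicate 1 or KO replicate 2, where unadjusted p was under 0.05 in 4 and 6 members; without WT replicate 1 there were 4573 and 4988 genes called. Saa1, closest to the threshold, also missed it with DESeq2 size factors (adjusted p = 0.0507) and limma-voom (0.0597), over a range of 0.000203 to 0.391. Few reads limit Saa1, Saa2, Orm1, Orm2 and Ptx3.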

Other observations

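The gap seen for Orm2 between the authors' deposited log2 values and the deposited reads was looked for in other genes. Among 17536 genes with at least 20 reads in WT replicate 2 and 40 reads over the KO libraries, the difference of KO from WT replicate 2 in the authors' deposited table departed from that in the reads by a median of -0.126 on the log2 scale. Orm2 departed by 2.98, and 297 genes (1.69%) departed by more than 2 from the median. What those genes share was not tested.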
